A study of Mus musculus with 12 samples.

Results

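Immediate early response genes were examined in a map of trimethylated lysine 4 of histone H3 (H3K4me3), a histone mark found at active promoters. The list held 10 genes, *Fos*, *Fosb*, *Jun*, *Junb*, *Jund*, *Egr1*, *Atf3*, *Ier2*, *Myc* and *Klf6*, and a peak was a member if the deposited table gave it the name of a listed gene. Of the 15848 peaks in the table, 9 met this rule, 1 for each gene except *Atf3*, under whose name no peak was listed. All 9 passed the filter on low values and stood among the 15039 peaks that were tested.

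Immediate early genes are transcribed within minutes of a stimulus such as a growth factor, stretch or stress, and their induction needs no new protein synthesis. Many encode transcription factors, among them the Fos and Jun families, which pair to form the AP-1 complex, and *Myc*, a regulator of growth and proliferation. In the heart they are known for their rapid induction by haemodynamic load and by adrenergic agonists. Their promoters are usually kept accessible before the stimulus arrives, so the mark can be present while transcription is low.

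Nuclei of cardiomyocytes (CMs), the contractile cells of the heart, were taken from adult mice, and the mark was measured by sequencing of immunoprecipitated chromatin (ChIP–seq). Cpt1bcKO mice, of the genotype αMHC-Cre pos/+;Cpt1b fl/fl, lose *Cpt1b*, which encodes the muscle carnitine palmitoyltransferase, through which fatty acids enter mitochondria. The controls, CtrlCre, carried the same transgene with intact *Cpt1b* (αMHC-Cre pos/+;Cpt1b +/+), so Cre recombinase was present in both genotypes. The αMHC promoter drives Cre in CMs from embryonic stages, so *Cpt1b* was inactivated before birth. Nuclei came from frozen ventricles and were sorted by the CM nuclear marker PCM1. Each genotype had 3 H3K4me3 libraries. The labels do not say whether a library came from 1 mouse or from several. The p-values set genotype differences against the spread between these libraries, drawn towards that of peaks of similar level.

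Values are read counts per peak that the authors divided by a size factor for each library, called normalized counts here. Size factors bring the libraries to a common scale, so a value shows the mark relative to the other peaks, not its total amount. By western blot of sorted CM nuclei, the paper reported reduced H3K4me3 in Cpt1bcKO mice. The recovered whole counts in peaks ranged from 763133 in CtrlCre replicate 2 to 2766416 in Cpt1bcKO replicate 2, and 3 counts correspond to between 1.95 and 6.97 normalized counts. The 4 peaks on chromosome Y summed to 400 normalized counts in CtrlCre replicate 3, to 322 in Cpt1bcKO replicate 3 and to 0 in the other libraries, so replicate 3 of each genotype stood apart and results are also given without this pair. All 10 CM marker genes had a peak, against 1 of 6 fibroblast markers (*Pdgfra*), 1 of 6 endothelial markers (*Kdr*), 0 of 6 immune markers and 2 of 4 mural markers (*Myh11* and *Kcnj8*). The CM marker peaks summed to 8711 to 10363 normalized counts in controls and to 6331 to 9332 in Cpt1bcKO CMs, and 10 of these 11 peaks had a lower mean log2 value in Cpt1bcKO CMs, 1 of them past the threshold. Of all 15039 tested peaks, 7702 had a positive difference and 1.82% were called lower. For other cell types the log2 differences (Cpt1bcKO minus CtrlCre) were -0.13 (*Pdgfra*, SE 0.18), -0.55 (*Kdr*, SE 0.26), -0.72 (*Myh11*, SE 0.44) and -0.01 (*Kcnj8*, SE 0.36), none past the threshold. These peaks were weak, with control means from 19.7 at *Myh11* to 65 at *Pdgfra*. The part of the CM marker shift in the results that follow was not tested.

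For 7 of the 10 genes, *Fos*, *Fosb*, *Jun*, *Junb*, *Jund*, *Atf3* and *Klf6*, the RefSeq promoter table (GRCm38.p6) had an entry, of which the 250 bases before the transcript start were searched on both strands for motifs of factors that act at immediate early promoters. Those of *Fos*, *Jun*, *Klf6* and *Atf3* are shown for the motifs they hold. These are copies of the elements recognised by CREB, ATF and AP-1 proteins or by Myc and its relatives. Whether these copies act in CMs was not tested. Capitals mark the ATF and Jun element TGACNTCA, the shorter core TGACGT of the cAMP response element, the TATA box TATAAA, and the E-box CACGTG that Myc recognises. A full cAMP response element would count under both the element and the core. Each runs 5′ to 3′ on the strand of the gene and ends at the base before the start.
Fos, chr12:85473640-85473889, plus strand: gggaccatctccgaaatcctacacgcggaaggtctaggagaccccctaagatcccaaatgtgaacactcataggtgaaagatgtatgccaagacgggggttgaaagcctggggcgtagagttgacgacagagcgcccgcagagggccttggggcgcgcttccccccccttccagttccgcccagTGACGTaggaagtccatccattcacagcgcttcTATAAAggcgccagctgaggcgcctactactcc
Jun, chr4:95052223-95052472, minus strand: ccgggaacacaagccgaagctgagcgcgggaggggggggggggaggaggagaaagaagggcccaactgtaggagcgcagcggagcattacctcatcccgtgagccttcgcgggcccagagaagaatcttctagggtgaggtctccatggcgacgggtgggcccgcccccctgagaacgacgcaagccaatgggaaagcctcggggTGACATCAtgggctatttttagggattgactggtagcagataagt
Klf6, chr13:5861239-5861488, plus strand: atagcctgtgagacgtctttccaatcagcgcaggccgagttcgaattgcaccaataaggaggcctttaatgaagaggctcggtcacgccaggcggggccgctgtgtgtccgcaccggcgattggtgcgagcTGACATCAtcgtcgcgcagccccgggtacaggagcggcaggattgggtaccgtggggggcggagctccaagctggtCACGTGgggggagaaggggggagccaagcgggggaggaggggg
Atf3, chr1:191183334-191183583, minus strand: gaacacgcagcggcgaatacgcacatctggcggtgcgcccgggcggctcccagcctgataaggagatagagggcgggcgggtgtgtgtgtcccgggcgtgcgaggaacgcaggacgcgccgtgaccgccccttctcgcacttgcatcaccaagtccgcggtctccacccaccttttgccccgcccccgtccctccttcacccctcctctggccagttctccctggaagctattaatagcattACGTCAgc

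Counted from the start, *Fos* held TGACGT at -66 to -61 and TATAAA at -33 to -28, *Jun* held TGACNTCA at -45 to -38, and *Klf6* held TGACNTCA at -119 to -112 and CACGTG at -43 to -38. The *Atf3* copy of TGACGT lay on the opposite strand at -8 to -3. *Fosb*, not shown, held GCGNGGGCG, the element of Egr proteins, at -50 to -42. The *Junb* and *Jund* windows held none of the letters searched, which also included the AP-1 element TGANTCA and the CArG box of serum response factor. Of all 32851 promoter entries, 6.47% held the core of the cAMP response element, 7.49% the ATF and Jun element, 12.4% the TATA box, 6.02% the E-box, 4.7% the Egr element, 6.75% the AP-1 element and 1.47% a CArG box. The windows of *Fos*, *Jun* and *Klf6* lay inside the peaks described next. That of *Jund* (chr8:70697489-70697738) lay outside its peak and upstream of position 70698949, the start of the transcript Jund-201 used for that peak. The bases directly before that start were not searched, so the result for *Jund* does not cover them. The *Atf3* window was covered by a peak that the table leaves without a gene name.

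The comparison asked whether H3K4me3 at these promoters differed between CMs with and without *Cpt1b*. Relative to the other peaks, the mark at *Myc* rose to 1.4 times the control mean in Cpt1bcKO CMs. At the other 8 members no difference passed the threshold, an adjusted p under 0.05 in limma with Benjamini–Hochberg adjustment over all tested peaks. Members called thus numbered 1 higher and 0 lower, where 1.11% of all tested peaks were called higher and 1.82% lower. At an unadjusted p under 0.05 in limma the members' counts were also 1 and 0, where 5.84% of all tested peaks were higher and 6.98% lower. The differences of the 9 members had no common direction, with 5 above and 4 below 0. Their median log2 difference, Cpt1bcKO minus CtrlCre, was 0.035, and that of all tested peaks was 0.006.

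*Fos* encodes the founding member of the Fos family, whose proteins bind DNA only when paired with a partner such as Jun. Its peak (mm10, chr12:85471951-85475122) spanned 3171 bases around the start of Fos-201, covered 36.4% of that transcript of 4 exons and had its summit 161 bases past the start. Normalized counts were 139, 170 and 158 in CtrlCre replicates 1 to 3 and 168, 151 and 168 in Cpt1bcKO replicates 1 to 3. The genotypes overlapped, and CtrlCre replicate 1 was the lowest library. Means were 156 ± 15.6 and 162 ± 9.81 (SD, n = 3), a log2 difference of 0.06 (SE 0.11, 95% interval -0.17 to 0.30, adjusted p in limma 0.888), and without CtrlCre replicate 1 the sign of the difference turned, to -0.015.

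*Fosb* encodes a second Fos protein of the same dimer partnership. Its peak (chr7:19308193-19310762, 2569 bases) was the narrowest of the members and covered 25.3% of Fosb-201, with the summit 1650 bases past the start. Normalized counts were 157, 186 and 167 in controls and 161, 176 and 185 in Cpt1bcKO CMs, so the ranges nearly coincided. The log2 difference was 0.03 (SE 0.11, 95% interval -0.19 to 0.26, adjusted p in limma 0.95). It turned to -0.021 without CtrlCre replicate 1 and to -0.011 without Cpt1bcKO replicate 3. At the named peaks of both Fos-family genes the sign of the difference thus depended on single libraries. A weak peak without a gene name (chr7:19304240-19305030), which the rule did not select, also overlapped *Fosb*. It had 21, 16 and 12 normalized counts in controls and 10, 19 and 7 in Cpt1bcKO CMs. Its log2 difference was -0.49 (SE 0.45, adjusted p in limma 0.74).

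*Jun* encodes the partner of Fos in the classical AP-1 dimer. Its peak (chr4:95048365-95054194, 5829 bases) was the widest and strongest of the members, covered the single exon of Jun-201 completely and also overlapped the antisense gene *Junos* and *Gm12703*, so that the signal cannot be ascribed to *Jun* alone. Normalized counts were 602, 537 and 604 in controls and 693, 688 and 602 in Cpt1bcKO CMs. Cpt1bcKO replicates 1 and 2 lay above all controls, whereas replicate 3 fell between them. Means were 581 ± 38.1 and 661 ± 51.2 (SD, n = 3), and the log2 difference of 0.18 (SE 0.10, 95% interval -0.02 to 0.39) had an unadjusted p of 0.081 and an adjusted p of 0.466 in limma. It was the second largest difference among the members and did not pass the threshold.

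*Junb* encodes a Jun protein that can oppose Jun at some targets. The *Junb* peak (chr8:84975913-84980523, 4610 bases) covered the whole of its 1 exon. Normalized counts were 354, 325 and 366 in controls and 300, 315 and 347 in Cpt1bcKO CMs, with Cpt1bcKO replicate 3 inside the control range. The log2 difference was -0.12 (SE 0.10, 95% interval -0.32 to 0.08, adjusted p in limma 0.686). *Jund*, the Jun gene with the steadiest expression in unstimulated cells, had a peak at chr8:70698174-70701023 (2849 bases) that covered its single exon and overlapped the antisense gene *Gm11175*. Its normalized counts were 297, 270 and 287 in controls and 315, 266 and 255 in Cpt1bcKO CMs, which held both the highest and the lowest library. The log2 difference at *Jund* was -0.04 (SE 0.10, 95% interval -0.24 to 0.17, adjusted p in limma 0.942), and it turned to 0.025 without Cpt1bcKO replicate 3.

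*Atf3* encodes a stress-induced factor that pairs with Jun proteins. The peak without a gene name (chr1:191182027-191185157, 3130 bases) lay wholly within an intron of the long *Atf3* transcript, of 4 exons and 47744 bases, while a shorter annotated *Atf3* transcript starts inside the peak, which covered the RefSeq promoter window printed above. That position is why it is given beside the members, although the rule did not select it. Normalized counts were 139, 139 and 135 in controls and 121, 142 and 116 in Cpt1bcKO CMs. The controls lay close together, and Cpt1bcKO replicate 2 exceeded them while the other 2 libraries lay below. Means were 138 ± 2.31 and 126 ± 13.8 (SD, n = 3), with a log2 difference of -0.13 (SE 0.12, 95% interval -0.37 to 0.12, adjusted p in limma 0.738).

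*Egr1* encodes a zinc finger factor induced through serum response factor and its Elk partners. Its peak (chr18:34859056-34862547, 3491 bases) covered 52.8% of a transcript of 2 exons. Normalized counts were 151, 184 and 185 in controls and 151, 134 and 180 in Cpt1bcKO CMs, a wide overlap in which CtrlCre replicate 1 and Cpt1bcKO replicate 1 had equal values after rounding. The log2 difference was -0.16 (SE 0.12, 95% interval -0.42 to 0.09, adjusted p in limma 0.649). *Ier2*, a growth factor-inducible gene of nuclear function, had a peak at chr8:84660042-84665656 (5614 bases) that covered its single exon and overlapped the lincRNA gene *Gm26664*. Normalized counts at *Ier2* were 330, 374 and 370 in controls and 308, 352 and 303 in Cpt1bcKO CMs. Cpt1bcKO replicate 2 lay inside the control range and the other 2 below it, with a log2 difference of -0.16 (SE 0.10, 95% interval -0.36 to 0.05, adjusted p in limma 0.553).

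*Myc* encodes the factor that, paired with Max, binds E-boxes of genes for growth, metabolism and cell cycle entry. Its peak (chr15:61983508-61989242, 5734 bases) had its summit 171 bases before the start of Myc-207, covered 83.3% of this transcript of 3 exons, and lay to 14% in exons, 43.9% in introns and 42.1% outside the transcript. Normalized counts were 385, 358 and 356 in controls and 466, 544 and 530 in Cpt1bcKO CMs. The groups did not overlap, and the lowest Cpt1bcKO library, replicate 1, lay well above the highest control. Such a lack of overlap was seen at 7.8% of all tested peaks in the direction of higher and at 8.46% in the direction of lower values. Among the members it was seen at 1 in the former direction and at 0 in the latter.

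Means at *Myc* were 366 ± 16.2 in controls and 513 ± 41.6 in Cpt1bcKO CMs (SD, n = 3), and the log2 difference was 0.48 (SE 0.10, 95% interval 0.28 to 0.68, adjusted p in limma 0.00477). By its unadjusted p of 5.01e-05, *Myc* ranked 158 among the 15039 tested peaks and 61 among the 7702 with a positive difference. When each of the 6 libraries was left out in turn, the difference at *Myc* stayed between 0.44 and 0.55 and its adjusted p in limma between 0.0109 and 0.0268. With replicates 1 and 2 of each genotype alone, a comparison of 2 libraries with 2 that was chosen after seeing the data, the *Myc* difference was 0.44 and its adjusted p in limma was 0.144, so the call was lost while the size was nearly kept. The CM marker sum also differed between libraries, at the values given above, and its part in the *Myc* result was not tested.

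*Klf6* encodes a zinc finger factor of the Krüppel-like family, induced by injury and growth signals. Its peak (chr13:5860542-5864892, 4350 bases) covered 38.3% of a transcript of 4 exons, with 67.2% of the peak in introns. Normalized counts were 422, 342 and 483 in controls and 453, 470 and 395 in Cpt1bcKO CMs. The controls alone spanned a wider range than the Cpt1bcKO libraries, from CtrlCre replicate 2 at the bottom to CtrlCre replicate 3 at the top. Means were 416 ± 70.7 and 439 ± 39.3 (SD, n = 3), with a log2 difference of 0.09 (SE 0.11, 95% interval -0.15 to 0.33, adjusted p in limma 0.827) that turned to -0.043 without CtrlCre replicate 2.

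**Figure D1:**
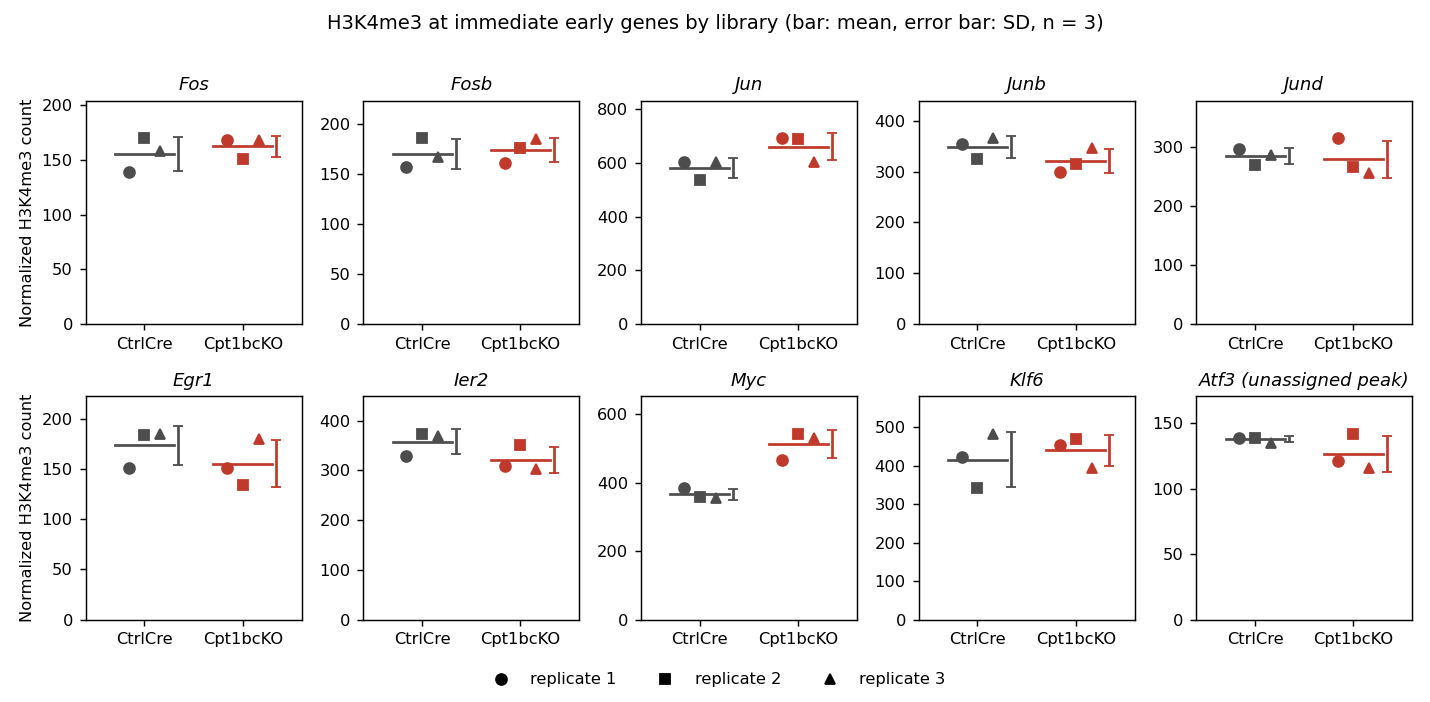
Normalized H3K4me3 counts (vertical axes from 0, a scale of its own for each gene) in each CtrlCre (grey) and Cpt1bcKO (red) library, with point shapes for replicates, bars for the mean and error bars for the SD of 3 libraries. The Cpt1bcKO values of *Myc*, from 466 to 544, lie above the controls, from 356 to 385, and the genotypes overlap at the other genes and at the unassigned *Atf3* peak.

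The 8 members other than *Myc* had log2 differences from -0.16 to 0.18 with adjusted p-values in limma of 0.466 to 0.95. Their 95% intervals lay within -0.42 to 0.39 on the log2 scale, that is, between 0.748 and 1.31 times the normalized control value. A change of 0.48, the estimate at *Myc*, lay outside all 8 intervals in either direction. The lower end of the *Myc* interval, 0.28, lay inside those of *Jun* (to 0.39), *Klf6* (to 0.33) and *Fos* (to 0.30). A fall of that smaller size lay inside those of *Egr1* (from -0.42), *Ier2* (from -0.36) and *Junb* (from -0.32). Relative to the mean of the other 8 members in the same library, *Myc* stood higher by 0.50, 0.37 and 0.28 on the log2 scale in controls and by 0.73, 0.97 and 0.93 in Cpt1bcKO CMs. The group means of this quantity, which was formed after the values had been seen and was not tested, were 0.38 ± 0.12 and 0.88 ± 0.13 (SD, n = 3).

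**Figure D2:**
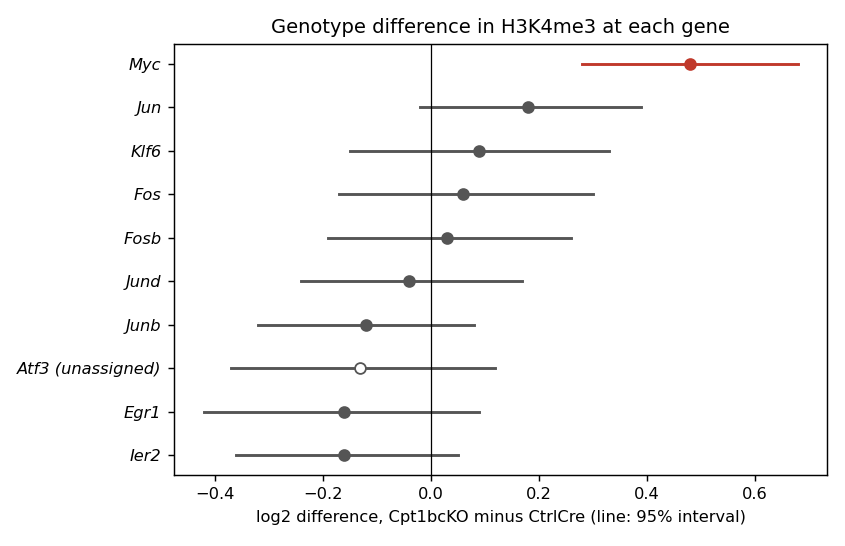
Log2 difference in H3K4me3, Cpt1bcKO minus CtrlCre (horizontal axis), for each gene, with lines for the 95% interval from limma, *Myc* in red and the unassigned *Atf3* peak as an open point. The interval of *Myc* runs from 0.28 to 0.68, and the other intervals include 0.

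Next, the spread between libraries of a genotype was compared with what the level of each peak would give. The SD of the log2 values within genotypes, with 4 degrees of freedom, was lowest at *Myc* with 0.095, followed by *Junb* with 0.098, and highest at *Egr1* with 0.191 and *Klf6* with 0.20. Its median over the 9 members was 0.113, against 0.181 for all tested peaks. The members were also stronger than most peaks, and stronger peaks spread less. Among the 4007 tested peaks with means between 159 and 621 normalized counts, the range of the members, the median SD was 0.119 and the 5th and 95th percentiles were 0.053 and 0.224. All 9 members fell between these percentiles.

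limma's trend gives the SD typical of a level. *Klf6* exceeded that SD 1.63-fold and *Egr1* 1.37-fold, *Jund* exceeded it by less than the rounding of the ratio, and the others had ratios from 0.78 at *Myc* to 0.90 at *Ier2*. Counting *Jund*, the SD lay above the trend at 3 of the 9 members and at 41.4% of tested peaks of the same range. Counting error alone, computed from the recovered counts, would give an SD of 0.119 at *Fos* and 0.115 at *Fosb*, and the measured SDs there were 1.01 and 0.98 times as large. At this pair of genes the measured spread thus had about the size of counting error. At *Klf6* the ratio to counting error was 2.65, at *Jun* 1.71 and at *Egr1* 1.63. The median over the members was 1.34, against 1.14 for all tested peaks, which is not matched for level. The SD from counting error itself had a median of 0.083 at the members and 0.151 at all tested peaks. The ratio to the trend had a median of 0.86 at the members and 0.93 at all tested peaks.

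**Figure D3:**
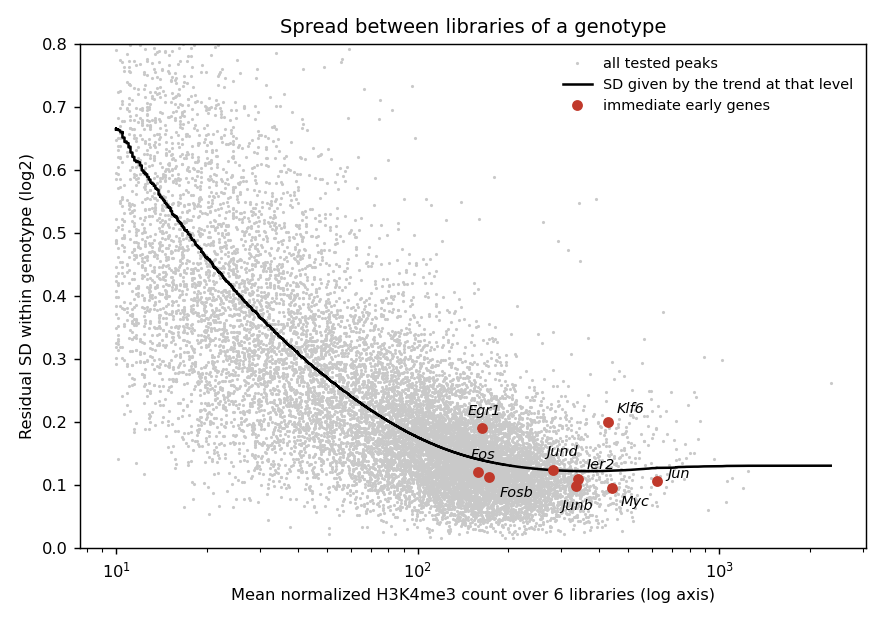
SD of the log2 values within genotypes (vertical axis, peaks above 0.8 not drawn) against the mean normalized count over 6 libraries (log axis), with tested peaks in grey, the trend of limma as a black line and the 9 members in red. *Klf6* and *Egr1* lie above the line with SDs of 0.20 and 0.191, and the other members lie near or under it.

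In no library did all members lie above or below the mean of their genotype. Of the 9 members, 5, 4 and 7 lay above their genotype mean in CtrlCre replicates 1 to 3 and 4, 5 and 5 in Cpt1bcKO replicates 1 to 3, where 50 to 51.5% of all tested peaks lay above it. Median deviations of the members ranged from -0.03 to 0.05 on the log2 scale. *Fos*, *Fosb*, *Egr1* and *Ier2* were lowest in CtrlCre replicate 1 among the controls, by 0.111 to 0.192 below the mean, and *Jun*, *Junb*, *Jund* and *Klf6* were lowest in CtrlCre replicate 2, the shallowest library. At *Klf6* this library held 147 recovered counts, for which counting error amounts to 8.25%, and the coefficient of variation of the controls was 17%. The ratio of the highest to the lowest library of a genotype ran from 1.08 at *Myc* in controls to 1.41 at *Klf6* in controls, with 1.34 at *Egr1* in Cpt1bcKO CMs.

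**Figure D4:**
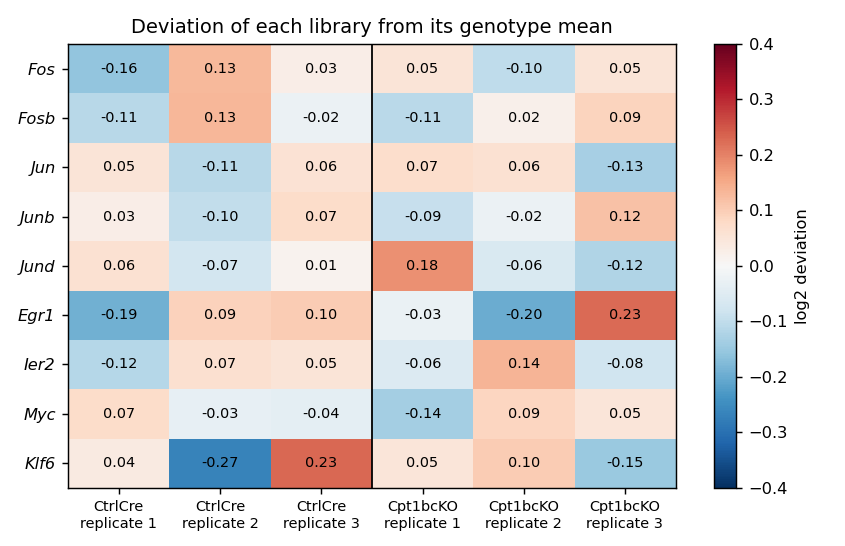
Deviation of each library from the mean of its genotype on the log2 scale (colour and printed number) for the 9 members (vertical) in the 6 libraries (horizontal). Colours mix within each column, and the furthest deviations are those of *Klf6* in CtrlCre replicates 2 and 3 and of *Egr1* in Cpt1bcKO replicate 3.

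All 9 members were wider than the median tested peak, with a median of 4350 bases against 1514, and all 9 were stronger, with a median of 334 normalized counts against 102. Per kilobase of peak the difference was smaller, at 72.6 against 60.5 normalized counts. On this scale, level per length, *Jun* came first with 107, followed by *Jund* with 98.9, *Klf6* with 98.3, *Myc* with 76.7, *Junb* with 72.6, *Fosb* with 67, *Ier2* with 60.5, *Fos* with 50.1 and *Egr1* with 47. The ranges over the 6 libraries overlapped for every neighbouring pair in this order except *Ier2*, from 54 to 66.6, and *Fos*, from 43.8 to 53.6. The GC content of the members ran from 48.1% at *Klf6* to 64.5% at *Jund* around a median of 58%, with 55.6% for all tested peaks.

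Peaks within 100000 bases of a member were inspected to see whether differences extended beyond it. Of 56 such tested peaks, 1 was called, that of *Gdf15*, 1 of the 12 neighbours of *Jund*, and it was higher in Cpt1bcKO CMs. Over all tested peaks, 1.11% were called higher and 1.82% lower. The only neighbour of *Myc* overlapped the noncoding gene *Pvt1*, 48423 bases away. Its normalized counts were 37, 63 and 49 in controls and 60, 58 and 88 in Cpt1bcKO CMs, and its log2 difference of 0.47 (SE 0.22) had an adjusted p of 0.372 in limma. By Pearson's r over the 6 libraries, the peaks whose values were most like the mean of the centred members were those of *Dtd1* (0.989), *Gtf3a* (0.985) and *Kmt5b* (0.977), picked as the highest of 9228 candidates. That mean itself was nearly flat, from -0.057 in CtrlCre replicate 1 to 0.033 in CtrlCre replicate 3 on the log2 scale.

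Other immediate early genes were taken from a list of 40, of which 38 had a peak and 39 peaks were tested. Of these 39 peaks 2 rose and 4 fell, where 1.11% of all tested peaks were called higher and 1.82% lower, and the remaining 33 did not pass the test. The median log2 difference was 0.02, close to the 0.006 of all tested peaks, with 21 peaks above and 18 below 0. *Dusp1*, a phosphatase that switches off MAP kinases, fell from 403, 458 and 440 normalized counts in controls to 285, 316 and 267 in Cpt1bcKO CMs, a log2 difference of -0.58 (SE 0.10, adjusted p in limma 0.000874). No Cpt1bcKO library reached the lowest control at *Dusp1*, a lack of overlap seen at 8.46% of all tested peaks in this direction.

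*Nr4a1*, an orphan nuclear receptor gene, had 2 peaks that moved in opposite directions. The peak at chr15:101265691-101267927, with its summit 5 bases past the start of Nr4a1-201, fell from 93, 74 and 101 to 63, 53 and 55 normalized counts (log2 difference -0.63, SE 0.17, adjusted p in limma 0.046). The peak at chr15:101260597-101262719, whose summit lay 5695 bases before that start, rose from 43, 44 and 65 to 84, 129 and 124 normalized counts (1.13, SE 0.19, adjusted p in limma 0.00103). The genotypes overlapped at neither peak, where 7.8% of all tested peaks lacked overlap in the direction of higher and 8.46% in that of lower values. The fall near the start was no longer called without CtrlCre replicate 1 (adjusted p 0.203), CtrlCre replicate 3 (0.209), Cpt1bcKO replicate 1 (0.0734), 2 (0.165) or 3 (0.136) in limma, nor after quantile normalization (0.058) or with a minimum mean of 50 (0.0526). The rise at the distal peak was called in each of the 6 fits that left out 1 library.

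*Ctgf*, a matricellular growth factor gene, and *Socs3*, an inhibitor of cytokine receptor signalling, also fell, and *Sik1*, a kinase gene induced by cAMP, rose. *Ctgf* had 230, 235 and 253 normalized counts in controls and 181, 162 and 187 in Cpt1bcKO CMs (log2 difference -0.44, SE 0.10, adjusted p in limma 0.0159). *Socs3* had 137, 170 and 177 against 122, 98 and 118 (-0.51, SE 0.13, adjusted p in limma 0.0277). *Sik1* had 166, 179 and 191 against 251, 241 and 211 (0.39, SE 0.10, adjusted p in limma 0.0435). The genotypes overlapped at none of these genes. Over all tested peaks, 7.8% lacked overlap in the direction of higher and 8.46% in that of lower values. Each of the calls at *Ctgf*, *Socs3* and *Sik1* depended on single libraries. The adjusted p in limma of *Ctgf* was 0.0531 without CtrlCre replicate 1, 0.0799 without CtrlCre replicate 3, 0.0547 without Cpt1bcKO replicate 1 and 0.0963 without Cpt1bcKO replicate 2. For *Socs3* it was 0.0635 and 0.138 without CtrlCre replicates 2 and 3, and 0.166 and 0.0707 without Cpt1bcKO replicates 2 and 3. For *Sik1* it was 0.222 and 0.0551 without CtrlCre replicates 1 and 2, 0.245 and 0.162 without Cpt1bcKO replicates 1 and 2, and 0.0548 after quantile normalization.

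**Figure D5:**
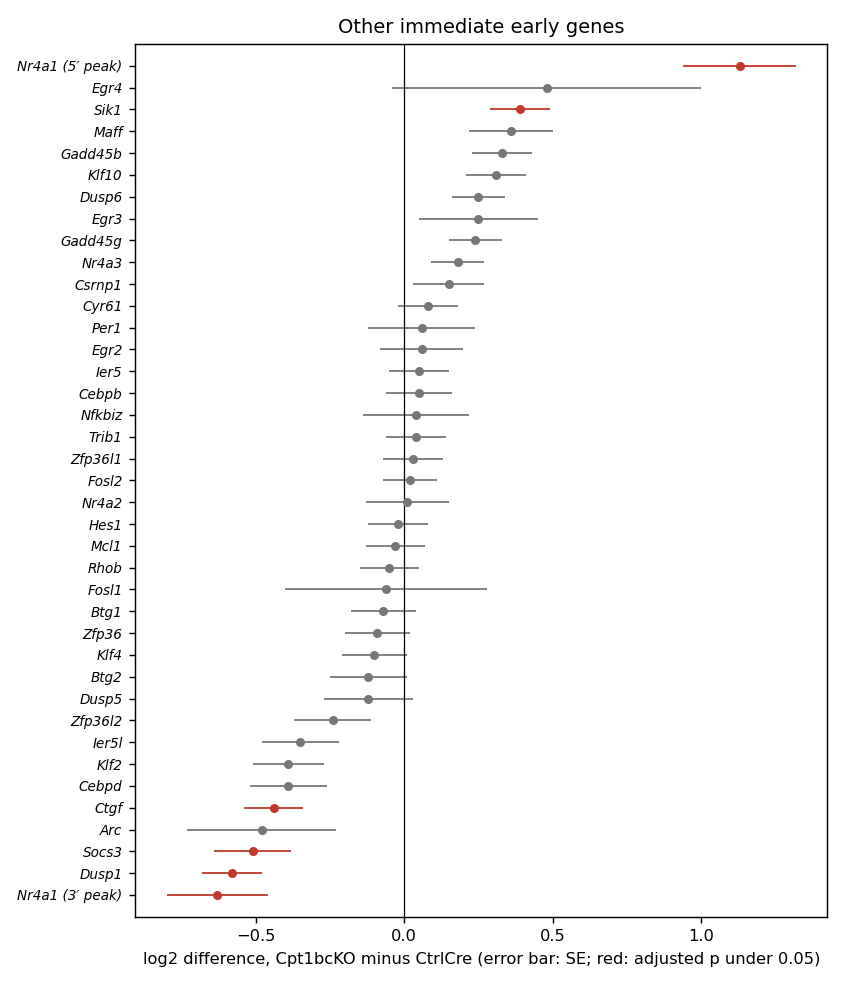
Log2 difference in H3K4me3, Cpt1bcKO minus CtrlCre (horizontal axis), for the 39 tested peaks of other immediate early genes, with error bars for the SE and red for an adjusted p under 0.05. The peaks spread on both sides of 0, with the *Nr4a1* peaks at either end at 1.13 and -0.63.

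Of the kinases and regulators upstream of immediate early genes, such as the MAP kinases, CREB, serum response factor and its coactivators, 27 were listed and 25 had a tested peak. None rose and 1 fell, *Myocd*, which encodes a coactivator of serum response factor in muscle, with 452, 423 and 454 normalized counts in controls and 286, 314 and 263 in Cpt1bcKO CMs (log2 difference -0.62, SE 0.10, adjusted p in limma 0.000364). Of 21 dimer partners and antagonists of the AP-1 and Myc proteins, 19 had a tested peak, of which 1 rose and 0 fell. Beside the counts of both lists, 1.11% of all tested peaks were called higher and 1.82% lower. The peak that rose was that of *Mafk*, which encodes a small Maf protein, at chr5:139791127-139798328. *Mafk* had 213, 228 and 268 normalized counts in controls and 305, 339 and 317 in Cpt1bcKO CMs (0.44, SE 0.10, adjusted p in limma 0.0159). The groups did not overlap, as at 7.8% of all tested peaks in this direction. The adjusted p in limma of *Mafk* was 0.137 without CtrlCre replicate 1, 0.0849 without Cpt1bcKO replicate 2 and 0.0614 without Cpt1bcKO replicate 3. *Max*, the partner of Myc, was among those that did not pass. The median log2 differences of both lists, 0.02 and 0.01, were near that of all tested peaks.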

How the data were processed

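H3K4me3 ChIP–seq libraries of sorted adult CM nuclei, 3 per genotype, were compared. Input libraries were not used here. The authors checked reads with FastQC 0.11.8, trimmed them with Trimmomatic 0.39, aligned them to mm10 with STAR 2.6.1d keeping unique unspliced alignments, removed duplicates with Picard 2.21.7, called peaks against input with MUSIC (false discovery rate 0.2) and unified them. The deposited values per library, treated as a score, are counts per union peak that the authors divided by DESeq2 1.26.0 size factors and rounded. The deposited genotype means are the same normalized signal, unrounded. Fold changes and p-values of the authors' own comparison in the same table were not used. The authors named peaks after the nearest gene whose promoter lies within 5000 bases. A peak without a name can still cover a promoter, as at *Atf3*.

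Whole counts were recovered for all 15848 peaks from rounded values and means together. limma 3.58.1 (R 4.3.3, lmFit and eBayes with a trend) was fitted to log2(value + 1) with genotype alone for 15039 peaks whose mean reached 10, two-sided, with Benjamini–Hochberg adjustment over these peaks. The script was tested on simulated data. Fold differences on this scale understate changes of low peaks. Counting errors and floors cover counting error only. Transcripts are from GENCODE vM21, in which 12354 of the 12371 deposited gene IDs were matched. The chromosome agreed for all 12354, and the start or end of the gene for 11530. Coordinates of peaks are as deposited.

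Groups and replicate numbers come from the sample titles. Deviations of same-numbered libraries correlated weakly, which cannot show whether the samples were paired, and no block entered the main fit. Alternatives were another pseudocount (5), no filter, a minimum mean of 50, quantile normalization, a replicate block, leaving out each library, and limma-voom on recovered counts. Members were named in full. From the other lists genes with an adjusted p under 0.05 were named, and the 3 peaks most like the members by Pearson's r. The members and lists were chosen with earlier results of these data known.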

Additional observations from a re-analysis of the deposited data

How the results depend on the processing

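*Myc* kept its direction under all 13 alternatives and its call under 12, and the median SD of the members moved by less than 0.039, the SD of that measure over the members, under all 13. With the replicate number as a block, the *Myc* difference was 0.48 with an adjusted p of 0.0211 in limma, and 370 peaks were called in place of 441. Under the block and after quantile normalization alike, 1 other immediate early gene peak was higher and 3 were lower, since *Sik1* and the *Nr4a1* peak at the start lost their calls (adjusted p in limma 0.085 and 0.0618 under the block). Deviations of same-numbered libraries correlated at 0.0759, -0.0812 and 0.105, and at 0.0313, -0.131 and -0.0605 without the sex chromosomes. Not every library correlated best with its own number. Correlations over so few libraries cannot show whether the samples were paired. Without single libraries, between 85 and 180 peaks were called higher and between 139 and 251 lower, the median difference of the members ran from -0.043 to 0.038, and other immediate early peaks called ran from 1 to 2 higher and from 1 to 4 lower. The total was lowest, 229, without CtrlCre replicate 1. With replicates 1 and 2 of each genotype alone, chosen after seeing the data, 39 peaks were higher and 43 lower, members called were 0, and other immediate early genes called were 0 higher and 0 lower. This comparison has fewer libraries.

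Signs turned only at members that were not called. Without single libraries *Fos* ranged from -0.015 to 0.13, *Fosb* from -0.021 to 0.10, *Klf6* from -0.043 to 0.21 and *Jund* from -0.13 to 0.025. *Fosb* was also negative, at -0.011, without Cpt1bcKO replicate 3, and with replicates 1 and 2 alone *Fosb* was -0.022 and *Jund* 0.032. *Dusp1*, *Myocd* and the distal *Nr4a1* peak lost their calls only with replicates 1 and 2 alone, with adjusted p-values of 0.0865, 0.0578 and 0.0562 in limma. The cause was not tested.

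Depth limits the weaker members most, with counting errors at *Fos* from 6.55% to 11.7% per library.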
